A study of Arabidopsis thaliana with 48 samples.

Results

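In closed flower buds of Arabidopsis thaliana, 5 annotated 22 nt miRNAs that are known to start secondary siRNA production were followed across all 12 small RNA libraries of a study of the arginine methyltransferase PRMT5. The miRNAs are miR173-5p, miR393a-5p, miR393b-5p, miR472-3p and miR828, 5 of the 428 miRNA names in the deposited tables. They were chosen by name, with earlier results of these data known. The miR393a-5p and miR393b-5p entries are copies of 1 mature sequence and were summed as miR393-5p, which leaves 4 distinct sequences. The plants were atprmt5-2 and atprmt5-6, a pair of mutant alleles of PRMT5, and Col0, the wild-type accession, all grown on soil in long days. From each genotype small RNA was taken as a total fraction (total) and from an immunoprecipitate with an antibody against the Argonaute protein AGO1 (AGO1-IP). Each genotype and fraction had 2 libraries, which the labels describe as biological duplicates. Whether an AGO1-IP and a total library came from the same material is not stated. Nothing in the labels states what lesion either allele carries or how many plants gave a library. The tables hold miRNAs alone, so neither PRMT5 (SKB1, AT4G31120) nor a marker of flower tissue could be checked in them. In such bulk extracts, fewer cells that make a miRNA and less miRNA per cell cannot be told apart.

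Most plant miRNAs are 21 nt long, are loaded into AGO1 and direct the cutting of a matching transcript. A 22 nt guide can do more: AGO1 bound to it recruits SGS3 and the RNA-dependent RNA polymerase RDR6 to the cut transcript, which is copied into double-stranded RNA and diced by DCL4 into a phased series of siRNAs. miR173 starts this process on the noncoding TAS1 and TAS2 transcripts, and miR828 on TAS4 and on transcripts of MYB factors of the anthocyanin pathway. miR393 acts on transcripts of the TIR1 and AFB auxin receptors, and miR472 on transcripts of CC-NBS-LRR immune receptors. PRMT5 places symmetric dimethyl marks on arginines of its substrates, and the study asked how its loss affects small RNA levels and AGO1 loading in reproductive tissue.

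The 4 guide sequences are printed because all comparisons turn on reads of these strings. They were read from the RefSeq annotation of assembly TAIR10.1 and are given as DNA, 5′ to 3′, with the seed (bases 2 to 8) in capitals.
miR173-5p: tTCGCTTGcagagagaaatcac
miR393a-5p and miR393b-5p: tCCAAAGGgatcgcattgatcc
miR472-3p: tTTTTCCTactccgcccatacc
miR828: tCTTGCTTaaatgagtattcca
Each is 22 nt long and starts with T (U in the RNA), the first base that AGO1 is known to favour. Among the miRNAs named in the tables, 48 had a RefSeq mature sequence of 22 nt, and 30 of these start with T. The seeds of the 4 guides differ from each other. No other annotated miRNA has the seed of miR173-5p or miR828, and miR865-3p has the same bases 2 to 8 as miR472-3p.

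The mature miR173-5p lies at chr3:8236161-8236182 on the plus strand in the MIR173 gene AT3G23125. The miR393 copies lie at chr2:16652111-16652132 (MIR393a, AT2G39885) and chr3:20691657-20691678 (MIR393b, AT3G55734), both on the plus strand. miR828 lies at chr4:13847020-13847041 on the plus strand (MIR828, AT4G27765). miR472-3p lies at chr1:4182143-4182164 on the minus strand (MIR472, AT1G12294). The MIR472 precursor sits inside 1 exon of AT1G12290, on the same strand and outside the coding sequence, and AT1G12290 itself carries a near match to miR472-3p in its coding sequence.

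Known targets of the guides were searched for their best matching 22-base site, to show what each guide pairs with. Capitals mark bases that form a Watson-Crick pair with the guide.
TAS1C (AT2G39675, noncoding RNA exon, miR173-5p): GTGATTTtTCTCTaCAAGCGAA
TIR1 (AT3G62980, coding exon, miR393-5p): GagaCAATGCGATCCCTTTGGA
AFB2 (AT3G26810, coding exon, miR393-5p): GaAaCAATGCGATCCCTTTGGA
AT5G43740 (coding exon, miR472-3p): GGTATGGGgGGAGTAGGAAAAA
AT3G25795 (TAS4, noncoding RNA exon, miR828): TGGAATACTCATTTgAGCAAGA
The TAS1C site pairs at 20 of 22 bases, the TIR1 site at 19, the AFB2 site at 20, and the AT5G43740 and AT3G25795 sites at 21. In the sites of TAS1C, TIR1, AFB2 and AT5G43740 every seed base forms such a pair, and in AT3G25795 1 seed base forms a G:U wobble pair instead. These are sequence matches, and the tables hold no reads of the targets or of the siRNAs made from them.

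The values are RPM, the reads of a miRNA in every 1000000 sequenced reads of the same length, as scaled by the authors separately for each length. Within a library every listed value was a whole multiple of 1 read, within 0.01 reads, so that read numbers could be recovered. In the AGO1-IP libraries 703609 to 2259088 reads of 22 nt lay behind the values, against 538878 to 1106045 in total libraries. Of the 22 nt reads, 0.206% to 0.437% in AGO1-IP libraries and 0.0404% to 0.0884% in total libraries belonged to annotated miRNAs, so an RPM of 22 nt reads is a level relative to a pool that is nearly all other small RNA. That pool itself differed between groups. For every 100 reads of 21 nt there were 18.8 and 22.1 reads of 22 nt in AGO1-IP of atprmt5-2, 18.8 and 21.0 in atprmt5-6 and 30.6 and 29.7 in Col0. In total libraries the numbers were 69.0 and 79.2 in atprmt5-2, 73.3 and 77.2 in atprmt5-6 and 94.3 and 83.9 in Col0. The mutant libraries thus lay below the Col0 libraries in both fractions, without overlap.

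miR173-5p, miR393-5p and miR472-3p had 22 nt reads in all 12 libraries, and miR828 had no read of 21 or 22 nt in any. For miR828, 3 reads, the limit that a count of 0 allows, correspond to 0.319 RPM over the 9397585 reads of 22 nt in the AGO1-IP libraries and to 0.555 RPM over the 5410294 in the total libraries. This limit covers counting error only. The other 3 guides together held 37.7% to 51.5% (median 42.2%) of all miRNA reads of that length in AGO1-IP libraries and 28.6% to 42.0% (median 36.9%) in total libraries. Among the 21 miRNAs abundant enough to be tested at 22 nt (mean of at least 5 RPM), miR393-5p ranked between 1 and 3 and miR173-5p between 2 and 3 in every group. miR472-3p ranked between 4 and 6.

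miR393-5p was the most abundant of the guides in AGO1-IP. Its 22 nt level was 728 and 1187 RPM in atprmt5-2, 662 and 594 RPM in atprmt5-6 and 494 and 388 RPM in Col0 AGO1-IP libraries. In total libraries it was 121 and 76.7 RPM in atprmt5-2, 65.4 and 69.3 RPM in atprmt5-6 and 81.7 and 96.7 RPM in Col0. As RPM of 22 nt reads all 4 mutant AGO1-IP libraries lay above both Col0 ones. In total the atprmt5-2 pair spanned the Col0 pair and the atprmt5-6 pair lay below it. The reads were divided evenly between the names of the copies, with 49.1% of the 22 nt reads under miR393a-5p, so the copies carry no separate information.

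miR173-5p, the TAS1 and TAS2 trigger, stood at 534 and 760 RPM in atprmt5-2, 498 and 464 RPM in atprmt5-6 and 285 and 281 RPM in Col0 AGO1-IP libraries. In total libraries it stood at 103 and 68.7 RPM in atprmt5-2, 75.1 and 68.3 RPM in atprmt5-6 and 70.5 and 54.2 RPM in Col0. In AGO1-IP the mutant libraries were all above the Col0 ones, and in total the groups overlapped.

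miR472-3p, the immune receptor guide, had the lowest level of the 3. It stood at 206 and 302 RPM in atprmt5-2, 150 and 156 RPM in atprmt5-6 and 117 and 122 RPM in Col0 AGO1-IP libraries. In total libraries it stood at 42.5 and 24.0 RPM in atprmt5-2, 19.5 and 32.1 RPM in atprmt5-6 and 48.2 and 70.5 RPM in Col0. As RPM of 22 nt reads this guide was therefore highest in Col0 among the total libraries and lowest in Col0 among the AGO1-IP libraries. Mutants and Col0 overlapped in neither fraction. The median of the 21 miRNAs tested also stood above Col0 in AGO1-IP (log2 difference 0.33 in atprmt5-2 and 0.40 in atprmt5-6). In total that median stood below Col0 (-0.04 and -0.33). The total values of miR472-3p rest on few reads, 58 summed over both libraries in atprmt5-2, 52 in atprmt5-6 and 104 in Col0.

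**Figure D1:**
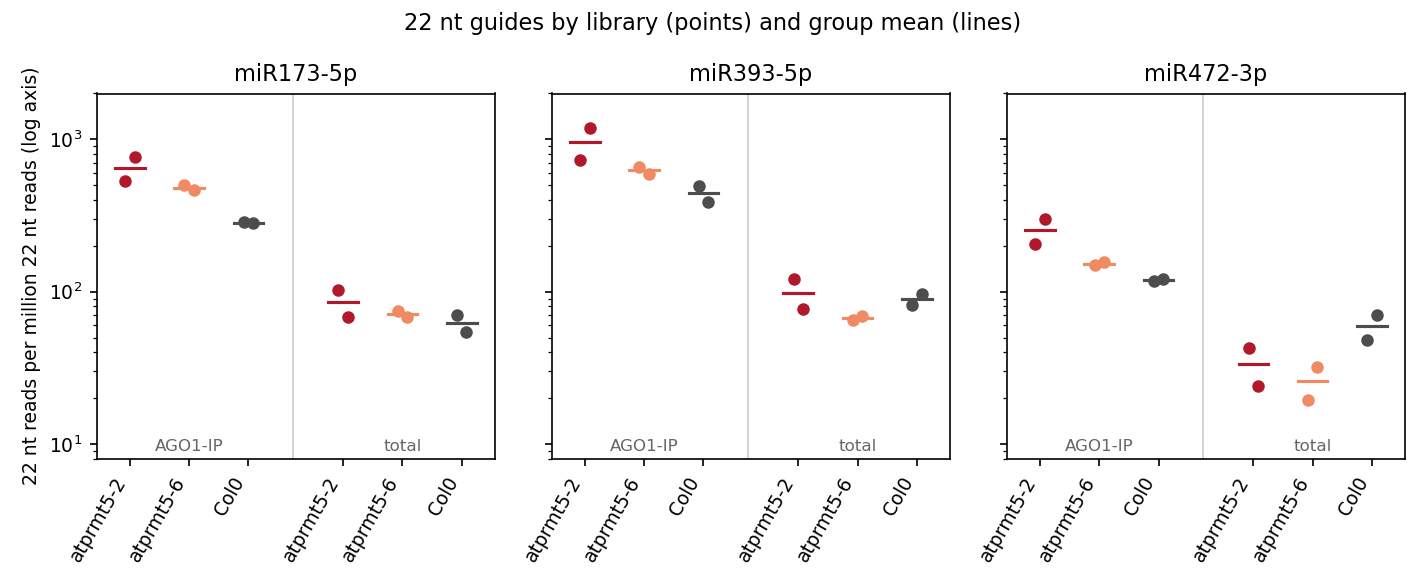
Level of miR173-5p, miR393-5p and miR472-3p in each library, as RPM of 22 nt reads on a log axis; points are libraries, lines are means of 2, AGO1-IP stands left of total and the mutants left of Col0. Every AGO1-IP point lies above every total point of the same guide, and for miR472-3p the Col0 points are the lowest in AGO1-IP and the highest in total.

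Ordered by mean level in AGO1-IP, each guide was highest in atprmt5-2, next in atprmt5-6 and lowest in Col0 as RPM of 22 nt reads. With both lengths together miR472-3p was lower in atprmt5-6 AGO1-IP (27.8 ± 2.97, SD, n = 2) than in Col0 AGO1-IP (31.2 ± 1.09). For miR393-5p the means were 957 ± 325 RPM in atprmt5-2, 628 ± 48.2 RPM in atprmt5-6 and 441 ± 75.4 RPM in Col0 (SD, n = 2 each). For miR173-5p they were 647 ± 160 RPM in atprmt5-2, 481 ± 24.1 RPM in atprmt5-6 and 283 ± 2.97 RPM in Col0. For miR472-3p they were 254 ± 67.6 RPM in atprmt5-2, 153 ± 4.30 RPM in atprmt5-6 and 119 ± 3.17 RPM in Col0. Replicates of neighbouring groups did not overlap in this order for any of the 3 guides. How many other miRNAs tested at 22 nt separated mutant from Col0 libraries, here or above, was not counted. The median of the 21 tested also stood above Col0 in AGO1-IP, by 0.33 in atprmt5-2 and 0.40 in atprmt5-6 (log2). In total small RNA the order differed between guides. As a mean over the pair of libraries, miR173-5p was 86.0 ± 24.5 RPM in atprmt5-2, 71.7 ± 4.84 RPM in atprmt5-6 and 62.4 ± 11.5 RPM in Col0, and all neighbours overlapped. miR393-5p averaged 98.6 ± 31.0 RPM in atprmt5-2, 67.3 ± 2.77 RPM in atprmt5-6 and 89.2 ± 10.7 RPM in Col0, where atprmt5-2 and Col0 overlapped and atprmt5-6 lay below both. miR472-3p averaged 33.3 ± 13.0 RPM in atprmt5-2, 25.8 ± 8.92 RPM in atprmt5-6 and 59.4 ± 15.8 RPM in Col0, with overlap between the mutants alone.

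The first comparison the design implies is AGO1-IP against total within a genotype. It asks how strongly a guide is recovered with AGO1 relative to its level in total small RNA. At 22 nt all 3 measured guides were higher in AGO1-IP in each genotype by limma on log2(RPM + 1), with p-values adjusted by the Benjamini-Hochberg method over the 21 miRNAs tested and calls at an adjusted p under 0.05. Most 22 nt miRNAs did the same: 100% of those tested were called in either direction in atprmt5-2, 95.2% in atprmt5-6 and 81.0% in Col0, and 90.5%, 90.5% and 76.2% were called higher. The median miRNA shifted by 2.54 on the log2 scale in atprmt5-2, by 2.63 in atprmt5-6 and by 2.03 in Col0. The guides are therefore best read against these medians.

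For miR393-5p the log2 difference, AGO1-IP minus total, was 3.26 (SE 0.38, 9.58-fold) in atprmt5-2, 3.20 (SE 0.38, 9.20-fold) in atprmt5-6 and 2.29 (SE 0.38, 4.88-fold) in Col0, with limma adjusted p-values of 1.46e-05, 2.83e-05 and 0.000461. For miR173-5p it was 2.90 (SE 0.36) in atprmt5-2, 2.73 (SE 0.36) in atprmt5-6 and 2.18 (SE 0.36) in Col0, with adjusted p-values of 1.46e-05, 4.68e-05 and 0.000461. For miR472-3p it was 2.92 (SE 0.41) in atprmt5-2, 2.56 (SE 0.41) in atprmt5-6 and 1.02 (SE 0.41) in Col0, with adjusted p-values of 4.14e-05, 8.70e-05 and 0.0361. The intervals of all guides in all genotypes contain the median shift, except that of miR472-3p in Col0, which runs from 0.13 to 1.92.

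These differences depend on what the reads are scaled to. Scaled to the 22 nt miRNA reads of each library instead, no guide was called in any genotype, with log2 differences between 0.10 and 0.57 for miR173-5p and miR393-5p. The 3 guides made up 37.7% to 51.5% of those reads in AGO1-IP libraries and 28.6% to 42.0% in total libraries. A shift that the guides share is therefore partly divided out on this scale, here and below. For miR472-3p that scale gave 0.18 in atprmt5-2, and the sign turned to -0.04 in atprmt5-6 and -0.82 in Col0 (limma adjusted p = 0.311). DESeq2 with its own size factors gave -0.82 for miR472-3p in Col0 (adjusted p = 0.0240), a call in the opposite direction, and edgeR with TMM gave -0.96 (adjusted p = 0.173). The Col0 call for miR472-3p was also lost on leaving out Col0 total replicate 1 (log2 difference 0.75, adjusted p = 0.168), Col0 AGO1-IP replicate 1 (1.05, adjusted p = 0.106) or Col0 AGO1-IP replicate 3 (0.99, adjusted p = 0.125).

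When reads of 21 and 22 nt were summed and scaled to the sum of both pools, the AGO1-IP differences were smaller. For miR393-5p the log2 difference was then 2.05 in atprmt5-2, 1.58 in atprmt5-6 and 1.07 in Col0, and for miR173-5p it was 1.57, 1.34 and 1.12 in the same order, all called by limma. For miR472-3p it was 1.54 in atprmt5-2 (adjusted p = 0.00406), 1.17 in atprmt5-6 (adjusted p = 0.0165) and 0.09 in Col0 (adjusted p = 0.827). On this scale miR472-3p reached 36.6 and 60.9 RPM of both lengths in atprmt5-2 AGO1-IP, 25.7 and 29.9 in atprmt5-6 AGO1-IP and 31.2 ± 1.09 (SD, n = 2) in Col0 AGO1-IP. In total it reached 19.2 and 12.7 in atprmt5-2, 8.26 and 16.6 in atprmt5-6 and 29.9 ± 9.11 (SD, n = 2) in Col0. In Col0, then, the AGO1-IP and total means of this guide differed by less than the SD of the total libraries, while in the mutants the AGO1-IP libraries lay above the total ones.

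**Figure D2:**
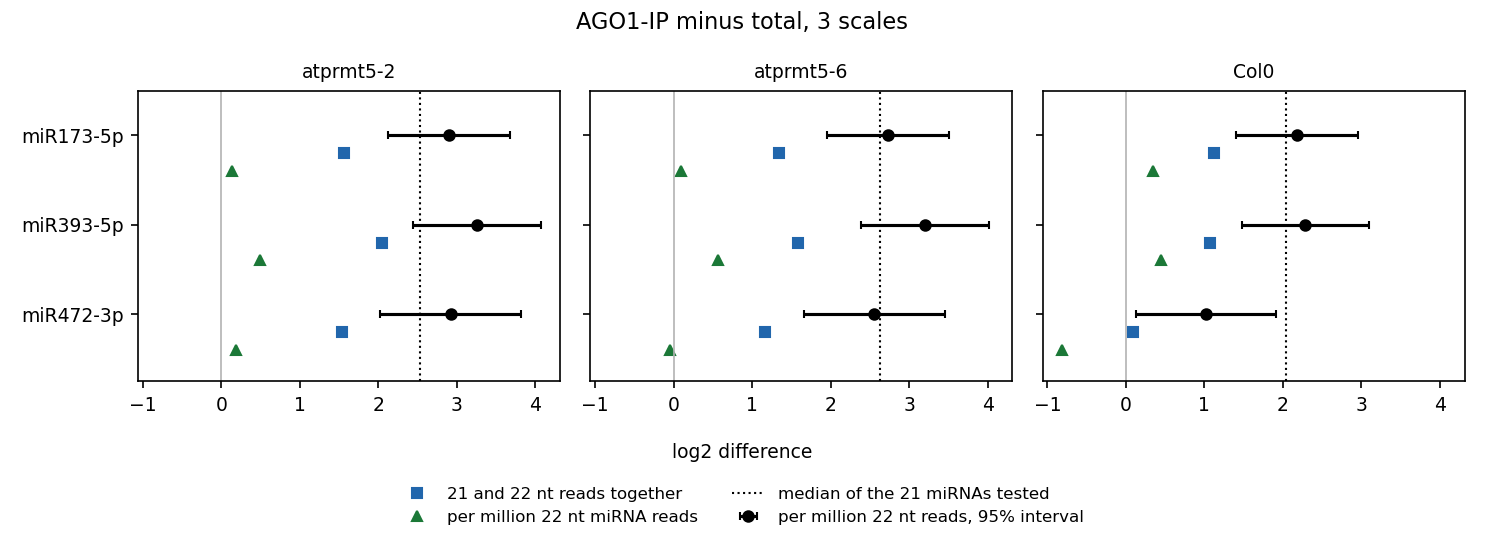
Log2 difference of each guide, AGO1-IP minus total, in each genotype: black points with 95% intervals are RPM of 22 nt reads, squares are 21 and 22 nt reads together, triangles are scaled to 22 nt miRNA reads alone, and the dotted line is the median of the 21 miRNAs tested. The intervals of the black points contain the dotted line, except that of miR472-3p in Col0, whose point is at 1.02. On the miRNA scale the triangles lie between -0.82 and 0.57, with miR472-3p below 0 in atprmt5-6 and Col0.

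The second comparison, each mutant against Col0 within a fraction, asks whether guide levels differ between a mutant and Col0. No guide passed the test at 22 nt in any of the 4 comparisons. Of the 21 miRNAs tested limma called 4.76% in atprmt5-2 total and 0% in each of the other 3 comparisons. At an unadjusted p under 0.05 stood all 3 guides in atprmt5-2 AGO1-IP, among 7 of the 21 miRNAs, and miR472-3p in atprmt5-6 total, among 4 of the 21. In atprmt5-2 total 3 of the 21 miRNAs and in atprmt5-6 AGO1-IP 1 of the 21 did so, none of them a guide.

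In AGO1-IP of atprmt5-2 the log2 difference from Col0 was 1.17 (SE 0.36, adjusted p = 0.0907) for miR173-5p, 1.08 (SE 0.38, adjusted p = 0.0907) for miR393-5p and 1.06 (SE 0.41, adjusted p = 0.129) for miR472-3p by limma. The median miRNA was at 0.33 there. edgeR's quasi-likelihood test on the recovered reads called miR173-5p (log2 difference 1.19, adjusted p = 0.0360) and miR393-5p (1.12, adjusted p = 0.0488), and DESeq2 with its own size factors called miR173-5p (0.46, adjusted p = 0.0202). edgeR with TMM called none, with 0.56 for miR173-5p (adjusted p = 0.167), 0.47 for miR393-5p (adjusted p = 0.253) and 0.45 for miR472-3p (adjusted p = 0.338). Scaled to 22 nt miRNA reads alone, the limma values were 0.17 for miR173-5p, 0.083 for miR393-5p and 0.058 for miR472-3p. With 21 and 22 nt reads together the limma values were 0.70 for miR173-5p, 0.67 for miR393-5p and 0.58 for miR472-3p, with adjusted p-values of 0.324, 0.392 and 0.590. The 22 nt pool, per 100 reads of 21 nt, was smaller in these mutant AGO1-IP libraries than in the Col0 ones, as given above.

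In AGO1-IP of atprmt5-6 the differences from Col0 were 0.76 (95% interval -0.01 to 1.54) for miR173-5p, 0.52 (-0.30 to 1.33) for miR393-5p and 0.35 (-0.55 to 1.25) for miR472-3p. The median miRNA was at 0.40. With both lengths together the values were 0.27, 0.07 and -0.17 in the same order, and on the scale of 22 nt miRNA reads alone miR393-5p and miR472-3p stood at -0.015 and -0.18. The direction of these 2 guides in atprmt5-6 AGO1-IP thus depends on the scale.

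In total small RNA miR472-3p was the guide with the largest difference. Its log2 difference from Col0 was -0.85 (95% interval -1.74 to 0.05, adjusted p = 0.217) in atprmt5-2 and -1.19 (-2.08 to -0.29, adjusted p = 0.0944) in atprmt5-6 by limma. With 21 and 22 nt reads together it was -0.86 (adjusted p = 0.193) in atprmt5-2 and -1.24 (adjusted p = 0.0482) in atprmt5-6, which passed the test in atprmt5-6. All 17 alternatives tried kept the negative sign in both alleles, with log2 differences of -1.25 to -0.45 for atprmt5-2, while those for atprmt5-6 spanned -1.53 to -0.81. The 2 alleles share the Col0 libraries, and Col0 total replicate 1 is the shallowest library.

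For the other guides the total levels gave small differences. miR173-5p differed from Col0 by 0.44 (95% interval -0.34 to 1.21) in atprmt5-2 and by 0.21 (-0.57 to 0.98) in atprmt5-6. miR393-5p differed by 0.11 (-0.70 to 0.93) in atprmt5-2 and by -0.40 (-1.21 to 0.42) in atprmt5-6, and with both lengths together the atprmt5-2 value turned to -0.31. Leaving out atprmt5-2 total replicate 1 or Col0 total replicate 1 also turned the atprmt5-2 value of miR393-5p below 0.

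**Figure D3:**
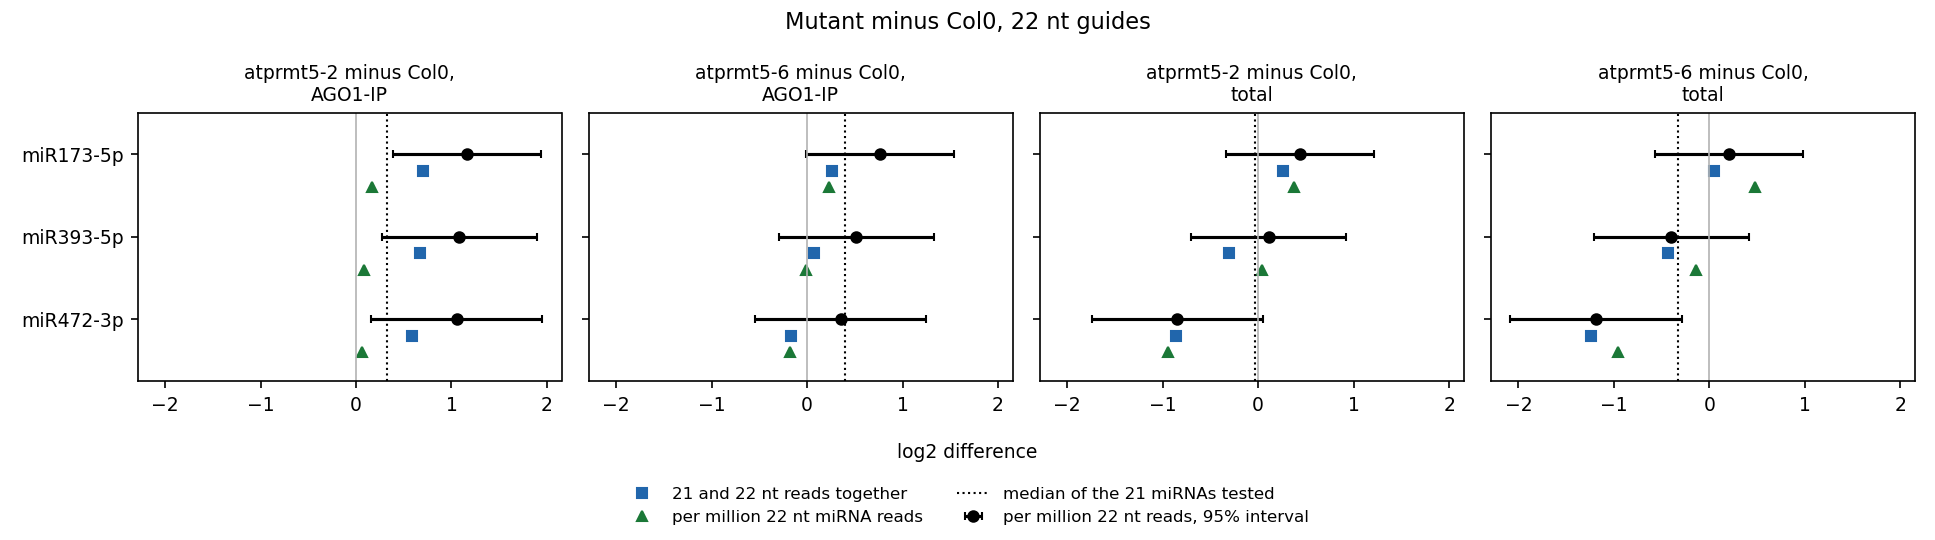
Log2 difference of each guide, mutant minus Col0, in AGO1-IP and in total, drawn as in the plot of AGO1-IP against total. In atprmt5-2 AGO1-IP the black points lie between 1.06 and 1.17 and move towards 0 on the other scales, with miR393-5p and miR472-3p at or below 0 on the miRNA scale in atprmt5-6 AGO1-IP; in total, miR472-3p lies below 0 in both alleles on all 3 scales.

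The third comparison is the loading difference, which is the AGO1-IP minus total log2 difference of a mutant minus that of Col0. No guide passed the limma test at 22 nt, and 0% of the 21 miRNAs were called in either allele. miR472-3p had the largest value of the 3 guides in both alleles. Its ratio of AGO1-IP to total on the log2(RPM + 1) scale was 3.74 times that of Col0 (log2 95% interval 0.64 to 3.17, unadjusted p = 0.00651, adjusted p = 0.0683 by limma) in atprmt5-2, and the log2 difference was 1.54 (0.27 to 2.80, unadjusted p = 0.0212, adjusted p = 0.201 by limma) in atprmt5-6. The median miRNA was at 0.73 in atprmt5-2 and 0.55 in atprmt5-6. Without atprmt5-2 total replicate 1 the atprmt5-2 value was 2.30 (adjusted p = 0.0141), without Col0 total replicate 1 it was 2.17 (adjusted p = 0.0496), and over 21 alternatives it lay between 1.00 and 2.30 with adjusted p-values between 0.0141 and 0.560. Other tools (edgeR and DESeq2 on recovered reads) called no guide in either allele.

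miR393-5p had a loading difference of 0.97 (95% interval -0.18 to 2.12) in atprmt5-2 and 0.91 (-0.24 to 2.06) in atprmt5-6, but over the alternatives it came down to 0.043 in atprmt5-2 (miRNA scale) and 0.059 in atprmt5-6 (DESeq2). miR173-5p had 0.73 (-0.37 to 1.82) in atprmt5-2 and 0.55 (-0.54 to 1.65) in atprmt5-6. It was itself the median of the miRNAs tested in both alleles. Without the guides the median was 0.68 in atprmt5-2 and 0.53 in atprmt5-6. On the scale of 22 nt miRNA reads alone the loading differences of miR173-5p turned to -0.20 and -0.25. At 2 libraries per group these intervals leave room for no difference and for a change of more than 2-fold alike.

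Read length itself is a property of interest, since a 22 nt guide shortened by 1 base would be an ordinary 21 nt guide. No miRNA with an annotated mature sequence under 22 nt was listed among the 51 names of the 22 nt tables, so no 22 nt read counted there was longer than its annotated form. Over all libraries 98.8% (95% Wilson interval 98.5% to 99.1%) of the 4574 reads of miR173-5p were 22 nt, 73.1% (72.2% to 74.0%) of the 8831 reads of miR393-5p and 89.7% (88.3% to 91.0%) of the 1968 reads of miR472-3p. miR393-5p thus had the most 21 nt reads of the 3, and its shares lay below those of the other guides in every library.

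By library the 22 nt share of miR393-5p was 71.8% and 72.9% in atprmt5-2, 74.4% and 71.2% in atprmt5-6 and 78.2% and 71.5% in Col0 AGO1-IP libraries. In total libraries it was 77.2% and 80.7% in atprmt5-2, 59.8% and 62.7% in atprmt5-6 and 58.7% and 72.3% in Col0. AGO1-IP shares averaged 73.3% ± 2.67 and total shares 68.6% ± 9.43 (SD, n = 6 each), and an exact two-sided permutation test of fraction labels within genotypes gave p = 0.231 (adjusted p = 0.667 over 9 such tests). For miR173-5p the same means were 98.9% ± 0.465 in AGO1-IP and 98.3% ± 2.45 in total, and for miR472-3p 89.8% ± 1.70 in AGO1-IP and 91.2% ± 7.25 in total, with permutation p-values of 0.657 and 0.667. Comparing the 4 mutant libraries with the 2 Col0 libraries within a fraction gave permutation p-values from 0.133 to 0.667, where the smallest p this design allows is 0.0667. The mutant comparisons could therefore not pass the test, and they pool alleles that differed for miR393-5p in total, where both atprmt5-2 libraries lay above both Col0 ones and the atprmt5-6 libraries lay between them.

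**Figure D4:**
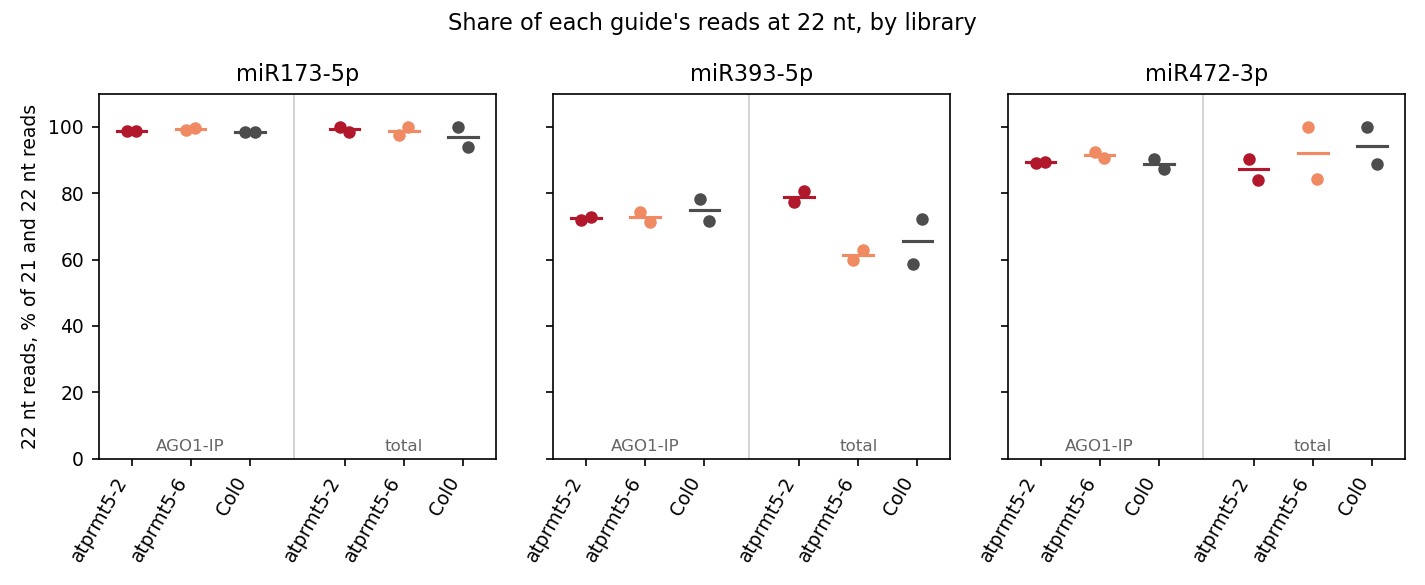
Percentage of the 21 and 22 nt reads of each guide that were 22 nt, by library; points are libraries, lines are means of 2, AGO1-IP stands left of total and the mutants left of Col0. miR173-5p lies between 93.8% and 100%, miR472-3p between 84.0% and 100% and miR393-5p between 58.7% and 80.7%, and the total libraries spread more than the AGO1-IP libraries.

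At 21 nt only miR393-5p was abundant enough to be tested, beside 126 other miRNAs. Its 21 nt level was 53.6 and 97.4 RPM in atprmt5-2, 42.9 and 50.6 RPM in atprmt5-6 and 42.1 and 46.1 RPM in Col0 AGO1-IP libraries. In total libraries it was 24.5 and 14.5 RPM in atprmt5-2, 32.2 and 31.8 RPM in atprmt5-6 and 54.3 and 31.1 RPM in Col0. AGO1-IP exceeded total by 1.88 on the log2 scale in atprmt5-2 (SE 0.38, limma adjusted p = 0.00166), where 55.1% of the 127 miRNAs were called and the median was 0.62. The difference was 0.53 (SE 0.38, adjusted p = 0.263) in atprmt5-6, with 60.6% of miRNAs called and a median of 0.69, and 0.10 (SE 0.38, adjusted p = 0.831) in Col0, with 40.9% called and a median of 0.23.

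Scaled to 21 nt miRNA reads alone, the AGO1-IP difference of the 21 nt form was 0.56 in atprmt5-2 (adjusted p = 0.243), -0.86 in atprmt5-6 (adjusted p = 0.0931) and -1.41 in Col0 (adjusted p = 0.00857), so its sign in atprmt5-6 and Col0 depends on the scale. Against Col0 the 21 nt form was not called: in total the log2 difference was -1.08 (adjusted p = 0.0761) in atprmt5-2 and -0.35 (adjusted p = 0.498) in atprmt5-6, and in AGO1-IP it was 0.70 (adjusted p = 0.389) and 0.08 (adjusted p = 1). Limma called 18.9% and 20.5% of the 127 miRNAs in the total comparisons and 3.94% and 0.787% in the AGO1-IP comparisons of atprmt5-2 and atprmt5-6. In the AGO1-IP comparisons same-numbered libraries tended to deviate together. A replicate block there gave 9 calls in atprmt5-2 and 7 in atprmt5-6, against 5 and 1 without it, and miR393-5p was in neither. Without atprmt5-2 total replicate 1 the atprmt5-2 total value was -1.44 (adjusted p = 0.0446), and the miRNA scale gave -1.20 (adjusted p = 0.0395). Its loading difference was 1.78 (adjusted p = 0.171) in atprmt5-2 and 0.43 (adjusted p = 0.711) in atprmt5-6, where 0% and 0.787% of miRNAs were called.

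The other arm of each precursor shows which strand went with AGO1. A miRNA is cut out as a duplex, of which AGO1 keeps the guide strand. The arm opposite miR393-5p is annotated at 21 nt, and the MIR393b form is shown because it made up most of that arm's reads; it starts with A where the guide starts with T.
miR393b-3p: aTCATGCGatctctttggatt
The 21 nt level of miR393b-3p averaged 6.73 ± 0.0873 RPM in atprmt5-2, 7.99 ± 2.30 RPM in atprmt5-6 and 10.9 ± 0.906 RPM in Col0 AGO1-IP libraries (SD, n = 2 each). In total libraries it averaged 152 ± 14.6 RPM in atprmt5-2, 140.5 ± 34.8 RPM in atprmt5-6 and 245 ± 84.5 RPM in Col0. AGO1-IP minus total on the log2 scale was -4.30 (SE 0.32) in atprmt5-2, -3.98 (SE 0.32) in atprmt5-6 and -4.32 (SE 0.32) in Col0, all called by limma at 21 nt.

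The shares of arms count a guide at 21 and 22 nt. Its partner is annotated at 21 nt and had no 22 nt reads listed, which can raise a guide's share. The 5p arm made up 92.9% to 98.1% of the reads of MIR393a and MIR393b in the 6 AGO1-IP libraries. In the 6 total libraries it made up 30.1% to 43.0%. In total extracts the 3p strand was thus the more abundant one in every library, and in AGO1-IP the 5p guide was. At 21 nt alone miR393-5p had 2169 reads in AGO1-IP and 205 in total, against 342 and 1151 of miR393b-3p. In the genotypes the AGO1-IP shares were 96.6% and 98.1% in atprmt5-2, 96.3% and 94.6% in atprmt5-6 and 94.8% and 92.9% in Col0. For MIR472 the 5p arm, here the strand opposite the guide, made up 0% to 1.81% of reads in AGO1-IP and 9.52% to 33.3% in total, from 14 reads of 5p against 1730 of 3p in AGO1-IP and 47 against 238 in total. MIR173 differed from both. Its 5p guide made up 97.9% to 99.2% of reads in AGO1-IP and 97.0% to 100% in total. At 21 nt alone its 5p and 3p reads were similar, 47 and 52 in AGO1-IP and 7 and 5 in total. Its opposite strand thus had few 21 nt reads in either fraction.

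**Figure D5:**
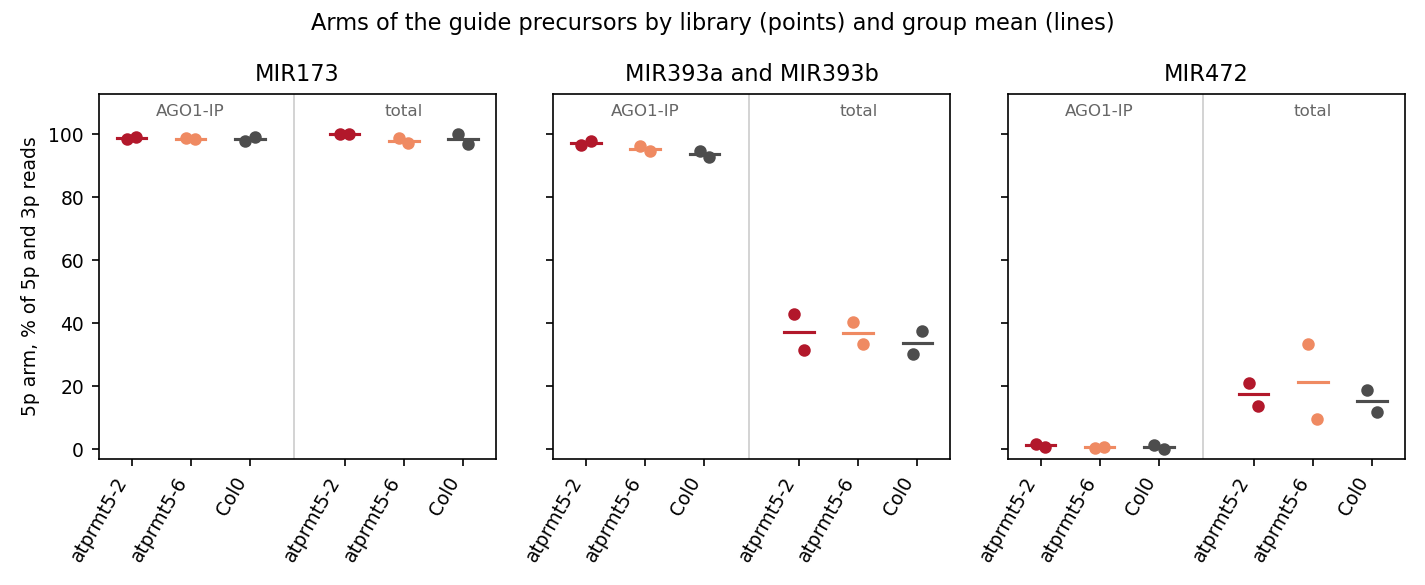
Share of the 5p arm among the 5p and 3p reads (21 and 22 nt) of each precursor, by library; points are libraries, lines are means of 2, AGO1-IP stands left of total and the mutants left of Col0. For MIR393a and MIR393b the AGO1-IP libraries lie between 92.9% and 98.1% and the total libraries between 30.1% and 43.0%. For MIR472 the 5p strand is near 0 in AGO1-IP, and MIR173 is near 100% in both fractions. The strands opposite the guides had reads listed at 21 nt alone, which can raise the guides' shares.

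Other miRNAs of the same pathway, listed by name, give the setting for the guides. In this list and in that of auxin guides below, copies under different names were counted apart and not summed, unlike miR393. Counts of entries are therefore not counts of distinct sequences. Of 11 entries for other triggers or for guides of the silencing machinery, all tested at 21 nt, 6 were higher and 2 lower in AGO1-IP than in total in atprmt5-2, 6 higher and 2 lower in atprmt5-6, and 4 higher and 2 lower in Col0. Of all 127 miRNAs, atprmt5-2 had 36.2% higher and 18.9% lower, atprmt5-6 had 40.9% higher and 19.7% lower, and Col0 had 20.5% higher and 20.5% lower. The lower ones were the miR390a-5p and miR390b-5p copies of the TAS3 trigger, known to work in AGO7, with log2 differences of -2.36 and -2.51 in atprmt5-2, -2.43 and -2.38 in atprmt5-6 and -3.70 and -3.57 in Col0. Those higher in all genotypes were miR161.1, which targets PPR transcripts, the miR162 copies, which target DCL1, and miR403-3p, which targets AGO2. miR161.1 differed by 0.97 in atprmt5-2, 0.86 in atprmt5-6 and 1.72 in Col0, and miR403-3p by 1.43, 1.41 and 1.27. The list's median was 0.97 in atprmt5-2, 0.85 in atprmt5-6 and -0.19 in Col0, beside 0.62, 0.69 and 0.23 over all miRNAs tested at 21 nt.

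Against Col0, 1 of the 11 was called higher in atprmt5-2 total (miR161.1, log2 difference 1.09). In atprmt5-6 total 1 was called higher (miR161.1, 1.19) and 1 lower (miR390b-5p, -0.87). The copy miR390a-5p stood at -0.90 there and was not called (limma adjusted p = 0.0509). Over all 127 miRNAs atprmt5-2 total had 3.15% higher and 15.7% lower, and atprmt5-6 total had 3.94% higher and 16.5% lower. In AGO1-IP 1 was called in atprmt5-2 (miR825, 1.69, higher, as were 2.36% of all miRNAs) and 0 in atprmt5-6, where miR825 alone of the 11, and 23 of all 127 miRNAs, had an unadjusted p under 0.05 (for miR825 log2 difference 1.21, limma adjusted p = 0.0529). Of 9 entries for other guides of auxin signalling, the field in which miR393 acts, 8 were tested at 21 nt, and at that length limma called 0 in any mutant comparison, with 0 at an unadjusted p under 0.05. In AGO1-IP against total, 2 of the 8 were higher in atprmt5-2 (miR160b and miR160c-5p), 5 in atprmt5-6 (miR160a-5p, miR160b, miR160c-5p, miR167a-5p and miR167b) and 0 in Col0, where 36.2%, 40.9% and 20.5% of all 127 miRNAs were higher in the same order. The remaining entry, miR164c-5p, was not abundant enough to be tested. miR167d was tested at both lengths. Its 22 nt reads were higher in AGO1-IP by 2.96 in atprmt5-2, 2.73 in atprmt5-6 and 2.27 in Col0, while its 21 nt reads gave -0.37, -0.18 and -0.35 in the same order and were not called. Against Col0 the 22 nt reads of miR167d gave 1.79 in atprmt5-2 AGO1-IP (unadjusted p = 0.0355, limma adjusted p = 0.129), the only mutant comparison of these entries with an unadjusted p under 0.05. miR160 and miR167 target ARF transcripts, which encode auxin response factors.

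Among the 20 other miRNAs tested at 22 nt, the ones whose log2(RPM + 1) ran most like each guide over the 12 libraries were named by Pearson r, as a description. For miR173-5p these were miR393-5p (r = 0.985), miR777 (0.984) and miR850 (0.968). For miR393-5p they were miR173-5p (0.985), miR777 (0.976) and miR830-5p (0.974), and for miR472-3p miR393-5p (0.954), miR830-5p (0.941) and miR447b (0.925). All points share the library scaling, and nearly all 22 nt miRNAs were higher in AGO1-IP, which enters each value.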

How the data were processed

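Small RNA of closed buds was measured in 12 libraries, each deposited as tables for reads of 21 to 24 nt (48 tables, 428 miRNA names). The deposited values are RPM, which the authors scaled to the reads of that length, as the values show. Tools named per the submitters' processing notes are Trimmomatic 0.36, Bowtie2 and SAMtools 1.9, with the TAIR10 build; their settings are not stated. All 2629 values of the 21 nt and 366 of the 22 nt tables were whole reads within 0.01 (100%), a missing value was taken as 0, and all denominators were recovered. In Col0 total replicate 1 the 23 nt table repeats, for each of its 195 listed names, the 21 nt read number, and was left out. Each length was fitted alone: limma 3.58.1 with trend on log2(RPM + 1), mean RPM of at least 5, 6 groups in 1 fit without block (fold changes on this scale understate those of low miRNAs), with Benjamini-Hochberg adjustment over the 21 miRNAs at 22 nt or the 127 at 21 nt. One spread for all groups assumes that AGO1-IP and total libraries vary alike, and with 2 libraries per group p-values measure the spread between these samples. Alternatives were edgeR 4.0.16 and DESeq2 1.42.0 on recovered reads, other scalings, filters and pseudocounts, and leaving out each library. The members and lists were chosen with earlier results of these data known; all members were named, beside the other arms, 11 other trigger or silencing guides, 9 auxin guides and the 3 nearest patterns. Names matched RefSeq mature miRNAs (TAIR10.1) for 427 of 428. The fits were tried on simulated data for atprmt5-2 against Col0 in total alone, with 1 spread assumed for all libraries. The other comparisons were not tried in this way.

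The labels number second replicates 2 in total and 3 in AGO1-IP, while deposited names number both 3. At 21 nt same-numbered AGO1-IP and total libraries deviated together in atprmt5-2 (r = 0.49) and atprmt5-6 (0.77), but little in Col0 (0.15). A block there changed no call of miR393-5p for AGO1-IP against total. At 22 nt such libraries did not deviate together (-0.04, 0.00 and -0.07). Across genotypes at 21 nt, same-numbered AGO1-IP libraries had r of 0.64 (both mutants), 0.22 (atprmt5-2 with Col0) and 0.35 (atprmt5-6 with Col0). Total libraries deviated together for the mutants alone (0.63, against -0.11 and -0.07 in the same order). At 22 nt these r were 0.32, 0.08 and 0.47 in total and -0.14, -0.14 and 0.59 in AGO1-IP. Replicates differed by more than sampling noise, so none was counted as a repeat. Intervals cover counting error only in shares of reads.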

Additional observations from a re-analysis of the deposited data

How the results depend on the processing

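At 22 nt, AGO1-IP against total called 3 guides per genotype. Scaled to 22 nt miRNA reads alone (miRNA scale) and by edgeR with TMM it called 0 in atprmt5-2, 0 in atprmt5-6 and 0 in Col0. DESeq2 called 0 in atprmt5-2, 0 in atprmt5-6 and 1 in Col0. Centring on the median miRNA left 1 in atprmt5-2, 2 in atprmt5-6 and 0 in Col0. Over all alternatives, of which the fit of both lengths tested 119 miRNAs, the calls over all miRNAs ran between 1 and 94 in atprmt5-2 (main 21), 1 and 94 in atprmt5-6 (20) and 0 and 75 in Col0 (17). On these scales the median 22 nt miRNA also moved towards 0; the cause of the lost calls was not tested. For miR472-3p the sign turned in atprmt5-6 to -0.042 (miRNA scale), -0.064 (TMM) and -0.10 (DESeq2), and in Col0 to -0.82 (miRNA scale), -0.23 (centred), -0.96 (TMM) and -0.82 (DESeq2); its Col0 call was also lost without the filter (adjusted p = 0.0525).

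Of the mutant comparisons, atprmt5-6 total gained 1 call (miR472-3p) with both lengths together, and atprmt5-2 AGO1-IP gained 2 by edgeR on recovered reads and 1 by DESeq2. In atprmt5-2 total miR393-5p turned to -0.31 with both lengths together. In atprmt5-6 AGO1-IP it turned to -0.015 (miRNA scale) and -0.11 (DESeq2), and miR472-3p to -0.18 (miRNA scale), -0.17 (both lengths), -0.11 (TMM) and -0.25 (DESeq2). The loading difference of miR173-5p turned to -0.20 (miRNA scale) and -0.20 (DESeq2) in atprmt5-2 and to -0.25 (miRNA scale), -0.16 (TMM) and -0.34 (DESeq2) in atprmt5-6.

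At 21 nt, where only miR393-5p was tested, atprmt5-2 against Col0 in total gained 1 call on the miRNA scale. AGO1-IP against total lost its call (0) on the miRNA scale in atprmt5-2, gained 1 with both lengths together in atprmt5-6 and in Col0, and 1 in Col0 on the miRNA scale in the opposite direction. In atprmt5-6 total its value turned to 0.45 (centred), 0.21 (TMM) and 0.20 (DESeq2). AGO1-IP against total turned to -0.86 (miRNA scale), -0.32 (TMM) and -0.24 (DESeq2) in atprmt5-6 and to -1.41 (miRNA scale), -0.29 (TMM) and -0.25 (DESeq2) in Col0. Its loading difference in atprmt5-6 turned to -0.30 (centred) and -0.030 (TMM). The causes of the changes at 21 nt were not tested.

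With each library left out in turn, between 0 and 1 guides were called for the loading difference of atprmt5-2 at 22 nt and for atprmt5-2 total at 21 nt. At 22 nt miR393-5p in atprmt5-2 total then ran between -0.21 and 0.44. At 21 nt it ran between -0.74 and 0.039 in atprmt5-6 total, between -0.039 and 0.19 in atprmt5-6 AGO1-IP, and between -0.30 and 0.49 for AGO1-IP against total in Col0. Differences in the 22 nt share, in percentage points, ran for AGO1-IP minus total between -0.441 and 1.64 (miR173-5p) and between -4.00 and 1.27 (miR472-3p). For mutants minus Col0 they ran in total between -1.04 and 5.21 (miR173-5p), -2.18 and 11.5 (miR393-5p) and -10.4 and 0.977 (miR472-3p), and in AGO1-IP between -5.63 and 1.12 (miR393-5p). With no guide listed at 23 nt in the tables used, shares over 21 to 23 nt could only be the same. Whether longer forms of the guides exist was not tested.

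A replicate block by the numbers of the labels gave 1 call in atprmt5-2 total at 21 nt (miR393-5p, log2 difference -1.08, adjusted p = 0.0284), and a block by deposited number ended the 22 nt call of miR472-3p in Col0 (1.02, adjusted p = 0.0664). At 22 nt same-numbered AGO1-IP and total libraries did not deviate together (r = -0.04 in atprmt5-2, 0.00 in atprmt5-6 and -0.07 in Col0). Across genotypes at 22 nt, r was 0.32, 0.08 and 0.47 among total libraries and -0.14, -0.14 and 0.59 among AGO1-IP libraries. Among total libraries at 21 nt only those of the mutants deviated together (0.63, against -0.11 and -0.07 with Col0). At 22 and 21 nt no other guide's call changed under a block. Depth limits the total libraries most, where 20 to 107 reads of 22 nt stood behind each value.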
